A study of Mus musculus with 6 samples.

Results

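Germline stem cells from the mouse testis (GSC) were compared with cells of the hair follicle (HF), over all genes detected on Illumina bead arrays and by pathway. The comparison used the 4 arrays titled GSC and HF, 2 of each, out of 6 arrays in the series. GSC were labelled as germline stem cells from the testis of adult OG2 mice of 3 months, and HF as hair follicle from the dorsal skin of adult OG2 mice of 2 months. The other 2 arrays held HFGSC, germline stem cells derived from the hair follicle of OG2 mice of 4 months. OG2 mice, which all groups share, carry a green fluorescent reporter driven by Oct4 regulatory sequence. The labels give no sex for HF, no culture conditions and no statement on whether the 2 arrays of a group came from separate animals or cultures. P-values therefore measure only the spread between these arrays, which may be technical. Tissue, age and any difference in sex or culture cannot be told apart between GSC and HF.

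Spermatogonial stem cells are the cells of the testis that renew themselves and give rise to sperm. They depend on glial cell line-derived neurotrophic factor (GDNF), which signals through Ret and Gfra1, and they silence transposons through small RNAs called piRNAs. Hair follicles are built from keratinocytes around a dermal papilla of fibroblast type, with a stem cell niche named the bulge and resident melanocytes. Many germline genes are held silent in somatic cells by DNA methylation and by a Polycomb complex that contains E2f6.

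The array carried probes for 19057 named genes. Both GSC arrays detected 9936 of them and both HF arrays 8410, with 7843 detected on all 4. A further 2093 genes were detected on both GSC arrays but not on both HF arrays, and 567 the other way round. Detection here means a deposited detection p under 0.05. Array mean intensities ran from 911 to 1149, and GSC arrays detected 19476 and 18772 probes against 16593 and 16094 on HF arrays. The lowest detected log2 intensity was 5.89 and 5.99 on the GSC arrays and 6.39 and 6.50 on the HF arrays, so values of about 5 are background. Over the tested genes the root mean square log2 difference was 0.861 between the GSC arrays and 0.737 between the HF arrays, against 1.87 to 2.02 between a GSC and an HF array.

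The GSC label was borne out by its markers, while no skin marker list was detected more often in HF than in GSC. Over all 19057 genes too, both GSC arrays detected more, 9936 against 8410 on both HF arrays. Both GSC arrays detected 21 of 23 germ cell markers and both HF arrays 2, and their summed linear level was 187751 to 202547 in GSC and 1105 to 1406 in HF. All 21 were higher in GSC. Among 14 basal keratinocyte markers 3 were detected on both HF arrays and 5 on both GSC arrays, and 6 were undetected on every array of the series. Suprabasal and hair shaft markers were detected for 4 of 17 in HF and 6 of 17 in GSC. Of 6 basal markers tested 3 were higher and 2 lower in GSC, and of 8 suprabasal markers 2 were higher and 2 lower. Krt5 and Krt14, the keratin pair of basal keratinocytes, had log2 intensities of 4.94 and 4.98 in GSC and 5.11 and 4.97 in HF for Krt5 and log2 intensities of 5.35 and 5.63 in GSC and 5.04 and 5.04 in HF for Krt14, all below detection. Krt15, a keratin of the bulge, and Trp63, the regulator of the epidermal lineage, were below detection on all 4 arrays too. Bulge markers were detected in equal number, 10 of 18 in each group, and of 13 tested 3 were higher and 2 lower in GSC. Lgr5, a receptor of follicle stem cells, was not detected in either group. Ptprc, the pan-leukocyte antigen, and Tyr, the melanocyte tyrosinase, were undetected on all 4 arrays. The list of melanocyte and neural crest markers was nonetheless detected for 3 of 16 in HF and 7 of 16 in GSC. Of its 8 tested members 5 were higher and 1 lower in GSC, while summed linear levels were 4385 to 4522 in HF and 2676 to 3539 in GSC. HF is therefore used here only as the name of the labelled sample, and which cells it held was not tested.

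**Figure D1:**
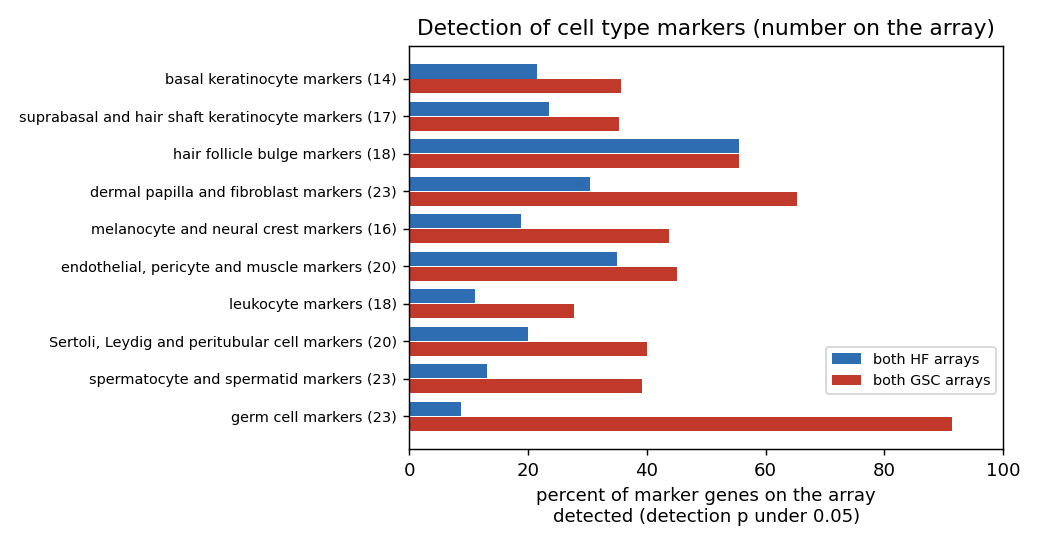
Percent of the marker genes on the array that both HF arrays (blue) or both GSC arrays (red) detected, for 10 marker lists, with the number of genes on the array in brackets. Germ cell markers stand out, with 21 of 23 detected in GSC and 2 of 23 in HF, while bulge markers were detected equally. Over all 19057 genes, both GSC arrays detected 9936 and both HF arrays 8410.

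Of 10913 genes tested with limma, 3501 passed a Benjamini-Hochberg adjusted p of 0.05, which is 32.1% of those tested. Higher genes in GSC numbered 2127 (19.5%) and lower genes 1374 (12.6%). Every one of the 3501 had both GSC arrays on one side of both HF arrays, and so did 67.5% of all tested genes. The difference exceeded 16-fold for 448 higher and 112 lower genes, and 64-fold for 119 and 10. Of the higher genes 1287 were detected on neither HF array, and of the lower genes 284 on neither GSC array. For those a fold is a lower bound, written "at least", taken against the lowest detected signal of the dim arrays. The median log2 difference over all tested genes was 0.07, and the median standard error 0.478. With 2 arrays against 2, an exact permutation test of one gene could not go below a two-sided p of 0.333, so all p-values come from the model across genes. Leaving out 1 of the 4 arrays cut the higher genes to between 1077 (without HF replicate 1) and 1594 (without GSC replicate 1) and the lower genes to between 616 (without GSC replicate 1) and 685 (without GSC replicate 2).

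**Figure D2:**
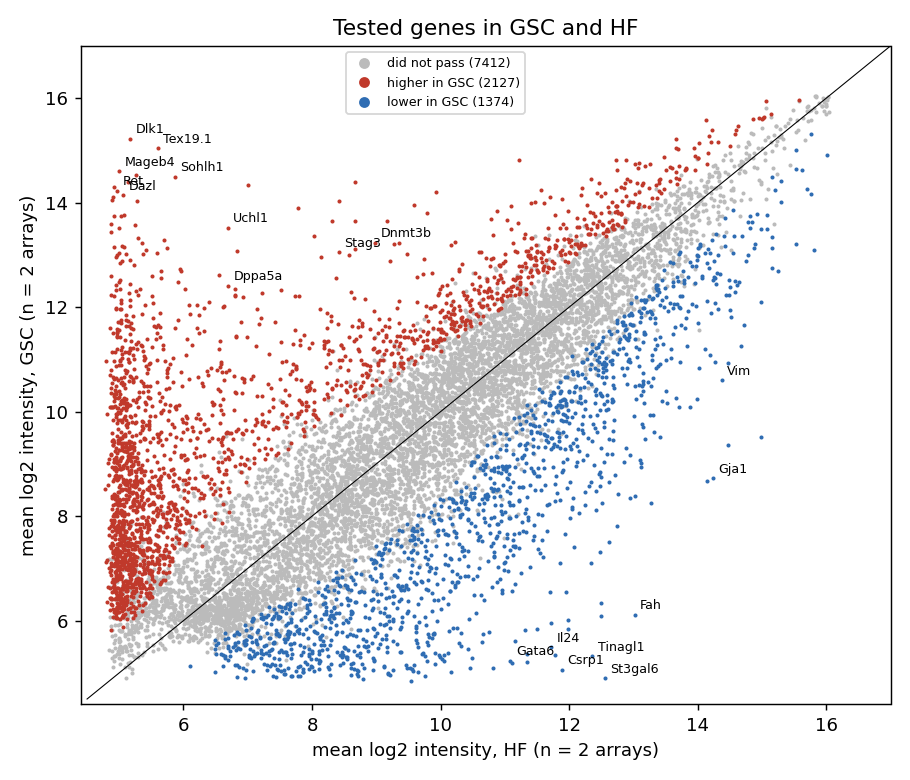
Mean log2 intensity of each tested gene in HF (x axis) and GSC (y axis), each over 2 arrays, with the line of equal level. Red points are the 2127 genes higher in GSC, blue the 1374 lower and grey the 7412 that did not pass. A column of red points at the left edge holds genes at background in HF.

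The 15 largest increases included the imprinted genes Dlk1, Cdkn1c and Igf2, the germ cell genes Dazl, Sohlh1 and Tex19.1, and the GDNF receptor Ret. Dlk1, an imprinted transmembrane protein of the Notch ligand family, had log2 intensities of 15.34 and 15.10 in GSC and 5.07 and 5.28 in HF, at least 438-fold higher (log2 difference 10.05, SE 0.30, adjusted p = 2.25e-05). Mageb4, a member of the cancer-testis Mage family, had log2 intensities of 14.94 and 14.27 in GSC and 5.02 and 4.98 in HF, at least 286-fold higher (log2 difference 9.60, SE 0.49, adjusted p = 7.99e-05). Cdkn1c, an imprinted inhibitor of cyclin-dependent kinases, had log2 intensities of 14.04 and 14.56 in GSC and 4.92 and 4.93 in HF, at least 231-fold higher (log2 difference 9.38, SE 0.40, adjusted p = 4.06e-05). All these genes were at background on both HF arrays and far above detection on both GSC arrays. Large2, a glycosyltransferase that extends the glycans of dystroglycan, had log2 intensities of 14.36 and 14.72 in GSC and 5.21 and 5.32 in HF, at least 273-fold higher. Esrp1, an epithelial splicing regulator, had log2 intensities of 13.92 and 13.56 in GSC and 5.07 and 4.98 in HF, at least 157-fold higher. Egr4, a zinc finger transcription factor, had log2 intensities of 14.02 and 13.15 in GSC and 4.88 and 4.88 in HF, at least 141-fold higher. The 15 largest increases ranged in log2 difference from 8.64 for Sohlh1 to 10.05 for Dlk1, with all HF values between 4.88 (Taf7l) and 6.02 (Sohlh1).

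The 15 largest decreases included St3gal6, Tinagl1, Fah, Csrp1, Il24, Eng and Gata6, genes of differing function. St3gal6, a sialyltransferase, had log2 intensities of 4.89 and 4.91 in GSC and 12.94 and 12.16 in HF, at least 97.7-fold lower (log2 difference -7.65, SE 0.47, adjusted p = 0.000123). Tinagl1, a secreted matrix glycoprotein, had log2 intensities of 5.21 and 5.44 in GSC and 12.02 and 12.70 in HF, at least 85.6-fold lower (log2 difference -7.04, SE 0.49, adjusted p = 0.000181). Fah, which ends the breakdown of tyrosine, had log2 intensities of 5.58 and 6.64 in GSC and 12.88 and 13.15 in HF, 120-fold lower (log2 difference -6.91, SE 0.57, adjusted p = 0.000319). GSC arrays lay near background for all of these while both HF arrays were bright. Pcdh17, a protocadherin, had log2 intensities of 5.25 and 5.44 in GSC and 12.64 and 10.92 in HF, at least 57.2-fold lower, with the HF arrays apart from each other. Car13, a carbonic anhydrase, had log2 intensities of 5.15 and 5.27 in GSC and 10.91 and 11.77 in HF, at least 42.2-fold lower. Rnpep, an aminopeptidase, had log2 intensities of 5.88 and 6.79 in GSC and 12.26 and 12.72 in HF, 71.3-fold lower. The 15 largest decreases ended with Mlkl at a log2 difference of -5.76. Each value is that of the gene's brightest probe. With the mean over detected probes, 12 of the 15 largest increases and 11 of the 15 largest decreases stayed among the 15 largest, and the log2 difference was 6.22 for Ret, 5.81 for Dazl, 6.60 for Large2 and -4.94 for St3gal6, all still called. Of 295 called genes named by rule, 46 changed by more than 1.5-fold in this way and 13 lost their call. Those of the 46 that are described below were Acsl5, Acta2, Adh1, Ankrd1, Cbr3, Cdh3, Dcn, Ddb2, Dnmt3b, Dppa4, E2f6, Fbln1, Fzd10, Fzd3, Gjb2, Gnas, Gpnmb, Hs3st3b1, Ifit2, Il6ra, Ldhc, Magea5, Psma8, Rbmxl2, Rps3, Tex13b and Vim. Mageb4, Tinagl1 and Pcdh17, described above, also belong to the 46.

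**Figure D3:**
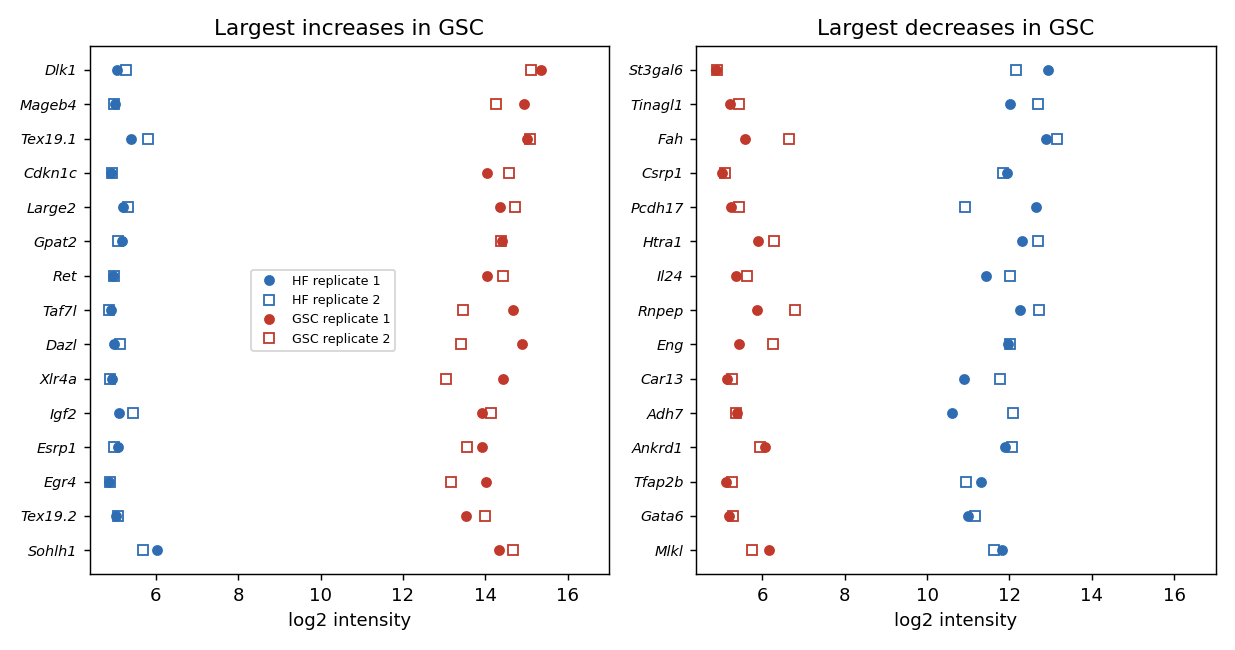
Log2 intensity on each array for the 15 largest increases (left) and the 15 largest decreases (right) among genes that passed, HF in blue and GSC in red, replicate 1 as filled circles and replicate 2 as open squares. The groups are separated by more than 5 log2 units for every gene shown, and arrays of one group differ most for Pcdh17, Adh7, Dazl and Xlr4a.

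Promoters of these extreme genes are shown for the short letter patterns that germline regulators and AP-1 factors are known to bind. Capitals mark 3 short motifs searched on both strands: CACGTG (the E-box bound by basic helix-loop-helix proteins), TCCCGC (an E2F-type motif) and TGANTCA (the AP-1 motif). Sequences are RefSeq windows of 300 bases that end shortly after the transcription start, in GRCm38.p6. A single promoter was matched for 10 of the 15 largest increases and 9 of the 15 largest decreases, and 4 and 1 of them held a motif. Only those with a motif are printed. Over all 7024 tested promoters TCCCGC was present in 36.4%, CACGTG in 10.5% and TGANTCA in 4.78%. The share with any of the 3 was not counted, so the 4 and 1 are not read as a trait of these genes.
Tex19.1: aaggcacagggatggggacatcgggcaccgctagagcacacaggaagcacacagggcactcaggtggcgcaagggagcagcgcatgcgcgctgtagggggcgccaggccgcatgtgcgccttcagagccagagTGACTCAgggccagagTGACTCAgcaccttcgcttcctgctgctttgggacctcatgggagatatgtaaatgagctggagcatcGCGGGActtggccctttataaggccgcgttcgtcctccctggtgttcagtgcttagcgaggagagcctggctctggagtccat
Gpat2: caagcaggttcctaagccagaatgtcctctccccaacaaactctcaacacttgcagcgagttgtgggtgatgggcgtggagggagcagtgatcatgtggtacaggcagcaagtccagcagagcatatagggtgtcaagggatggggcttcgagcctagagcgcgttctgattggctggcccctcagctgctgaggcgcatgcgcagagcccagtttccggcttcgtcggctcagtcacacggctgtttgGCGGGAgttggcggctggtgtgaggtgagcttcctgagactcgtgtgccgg
Taf7l: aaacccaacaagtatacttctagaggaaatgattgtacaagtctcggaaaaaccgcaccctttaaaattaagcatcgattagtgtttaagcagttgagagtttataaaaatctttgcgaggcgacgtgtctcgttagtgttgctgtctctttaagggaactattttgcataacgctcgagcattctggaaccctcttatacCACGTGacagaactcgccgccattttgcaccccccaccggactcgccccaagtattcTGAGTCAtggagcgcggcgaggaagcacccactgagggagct
Sohlh1: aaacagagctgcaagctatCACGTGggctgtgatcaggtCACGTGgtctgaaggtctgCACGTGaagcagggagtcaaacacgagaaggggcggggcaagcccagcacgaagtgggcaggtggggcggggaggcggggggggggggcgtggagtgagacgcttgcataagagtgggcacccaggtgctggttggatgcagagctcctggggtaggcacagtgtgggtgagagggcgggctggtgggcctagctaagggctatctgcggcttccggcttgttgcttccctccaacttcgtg
Adh7: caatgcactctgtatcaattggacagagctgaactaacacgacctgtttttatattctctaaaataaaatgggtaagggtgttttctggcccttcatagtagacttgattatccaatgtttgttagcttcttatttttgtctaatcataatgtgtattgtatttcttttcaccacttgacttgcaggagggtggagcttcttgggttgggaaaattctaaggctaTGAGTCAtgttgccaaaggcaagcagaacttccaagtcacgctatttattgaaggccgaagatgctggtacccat

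Tex19.1 (chr11:121145893-121146192, plus strand) held 1 TCCCGC and 2 TGANTCA matches, and Gpat2 (chr2:127424949-127425248, plus strand) 1 TCCCGC match. Taf7l (chrX:134476441-134476740, minus strand) held 1 CACGTG and 1 TGANTCA match. The window of Sohlh1 (chr2:25847199-25847498, minus strand) had 3 CACGTG matches, all near its upstream end. Adh7, lower in GSC, had 1 TGANTCA match (chr3:138217523-138217822, plus strand). Over the 7024 tested genes with 1 promoter, TGANTCA was present for 8.79% of the lower genes (72 of 819), 4.63% of the higher genes and 4.15% of those that did not pass, beside 7.98% of the 22862 promoters of the whole table. It was found in 8 of the 62 genes lower by more than 16-fold (12.9%), where CACGTG was found in 1 (1.61%) and TCCCGC in 19 (30.6%). CACGTG was present for 11.1% of higher, 8.79% of lower and 10.6% of other genes, and for 11 of 64 higher genes of the germline lists (17.2%). TCCCGC was present for 33.2%, 35.8% and 37.5% in the same order, and for 15 of those 64 germline genes (23.4%). In the whole table CACGTG was present for 7.12% and TCCCGC for 19.6%. TGANTCA was present for 5 of the 64 (7.81%). A match describes these letters only, and binding was not measured.

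Gene lists were then read one by one against the background of 19.5% higher and 12.6% lower. A member at background in HF could be tested only through its signal in GSC or HFGSC. The number on the array is therefore given beside the number tested for some lists, and for the others only the number tested is given. Where genes at background in 1 group move a list's median once set to their bounds, that second median is given as "with bounds". Ranges given as "with 1 array left out" cover the fits without HF replicate 1, HF replicate 2, GSC replicate 1 and GSC replicate 2 in turn. Probes of near-identical family members may share signal, which was not tested.

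**Figure D4:**
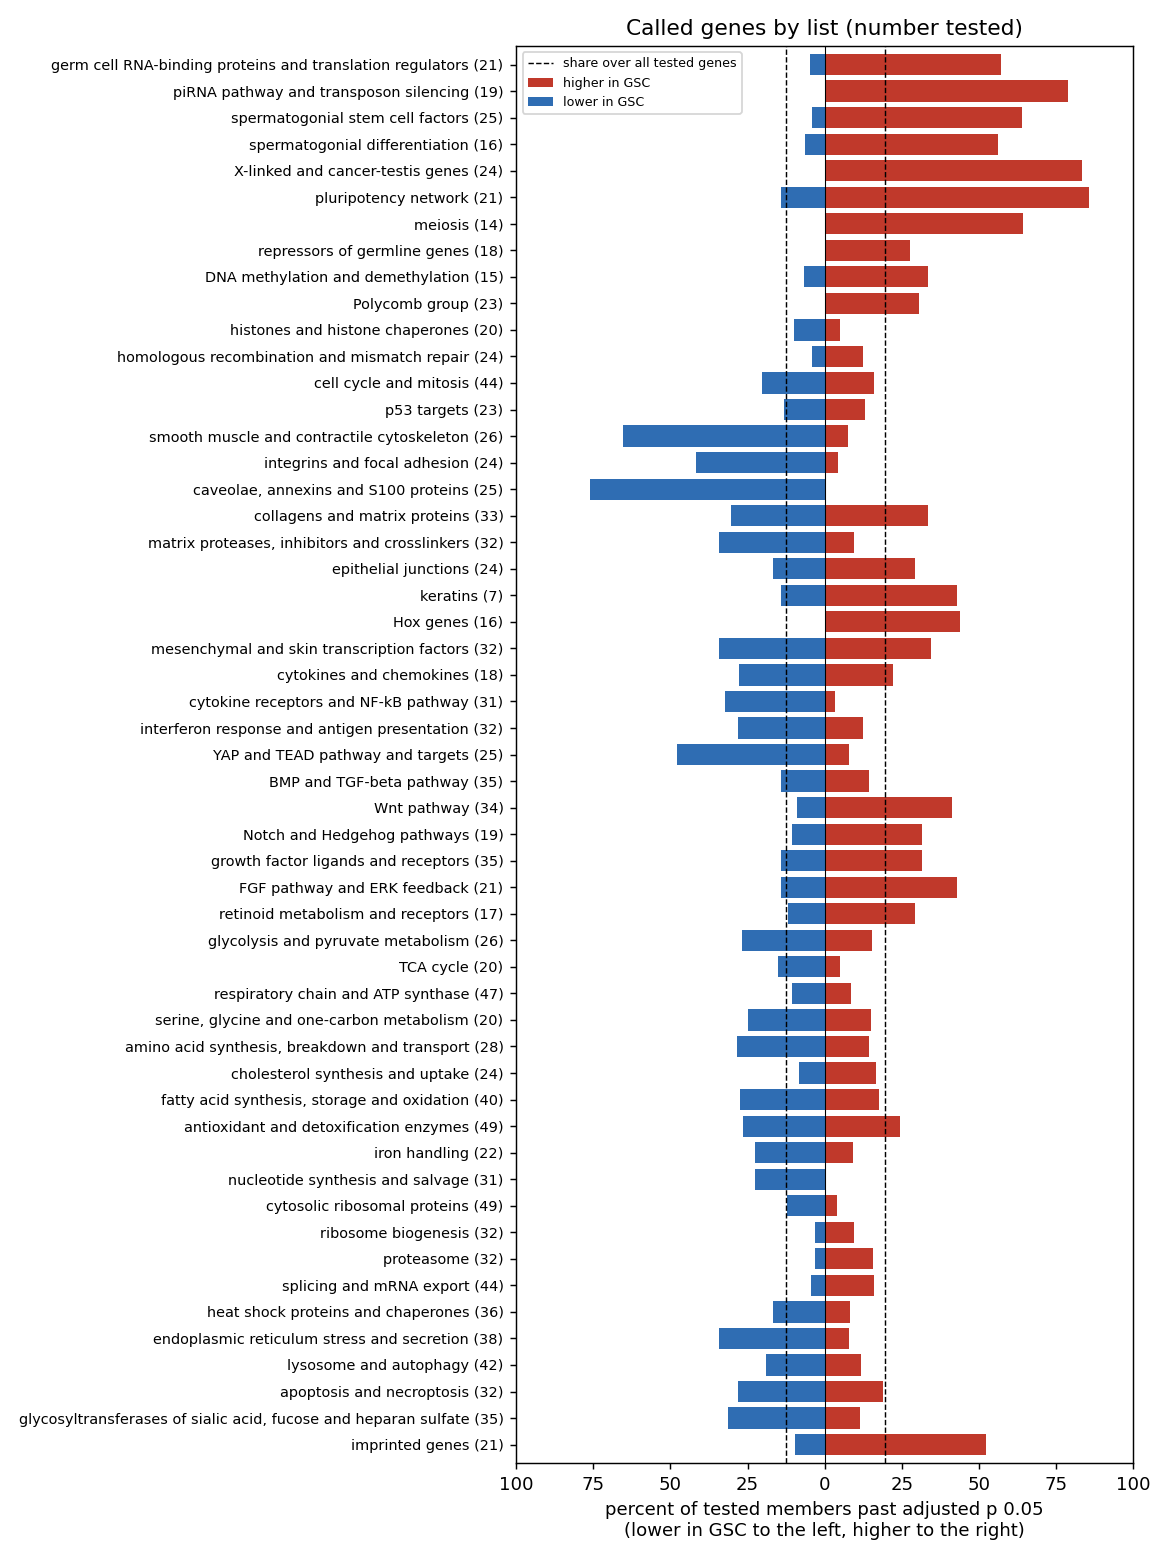
Percent of the tested members of each of 53 gene lists that were higher (red, to the right) or lower (blue, to the left) in GSC, with the number tested in brackets. Dashed lines give the shares over all tested genes, 19.5% higher and 12.6% lower. Germline lists extend to the right, contractile, caveolar and integrin lists to the left, and ribosomal, respiratory and splicing lists stay short.

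Germ cell genes that passed were nearly all higher in GSC. In the piRNA and transposon silencing list 15 of 19 tested genes were higher and 0 lower, with a median log2 difference of 4.41, 3.33 with bounds (13 to 14 higher and 0 to 0 lower with 1 array left out). Tex19.1, which restrains retrotransposons in germ cells, had log2 intensities of 15.01 and 15.08 in GSC and 5.40 and 5.80 in HF, at least 387-fold higher (log2 difference 9.44, SE 0.34, adjusted p = 3.33e-05). Gpat2, an acyltransferase family member needed for piRNA production, had log2 intensities of 14.41 and 14.38 in GSC and 5.18 and 5.09 in HF, at least 247-fold higher (log2 difference 9.26, SE 0.36, adjusted p = 3.33e-05). Piwil2, a Piwi protein that binds piRNAs, had log2 intensities of 13.98 and 13.19 in GSC and 5.28 and 5.20 in HF, at least 141-fold higher (log2 difference 8.34, SE 0.52, adjusted p = 0.000123). These genes were bright on both GSC arrays and at background on both HF arrays. The tudor domain proteins Tdrd5 and Tdrd12 were at least 59.9-fold higher and at least 28.7-fold higher. Tdrd1, Tdrd7, Exd1 and Prmt5 did not pass, and 4 of the 23 list genes on the array, Mael among them, were not tested.

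RNA-binding proteins that control germ cell fate showed 12 higher and 1 lower of 21 tested (median log2 difference 3.20, 2.08 with bounds, 10 to 12 higher and 0 to 0 lower with 1 array left out). Dazl, a translational regulator of germ cells, had log2 intensities of 14.89 and 13.40 in GSC and 4.99 and 5.13 in HF, at least 208-fold higher (log2 difference 9.09, SE 0.64, adjusted p = 0.000187), with the GSC arrays apart from each other by more than a log2 unit. Dnd1, which protects primordial germ cells, had log2 intensities of 14.13 and 14.54 in GSC and 6.13 and 7.88 in HF, 161-fold higher (log2 difference 7.33, SE 0.55, adjusted p = 0.000232). Nanos2, a factor that keeps spermatogonial stem cells undifferentiated, had log2 intensities of 11.92 and 12.17 in GSC and 5.78 and 6.39 in HF, at least 48.6-fold higher (log2 difference 5.96, SE 0.53, adjusted p = 0.000403). Each separated the groups without overlap. Rbmxl2, a germ cell splicing factor, had log2 intensities of 12.30 and 12.91 in GSC and 4.83 and 4.91 in HF, at least 71.5-fold higher. Ddx4, the germ cell helicase also called Vasa, had log2 intensities of 10.002 and 8.33 in GSC and 5.56 and 6.37 in HF, at least 6.57-fold higher, with an adjusted p of 0.0708 for the mean over its detected probes. The lower member was Eif4e3, a cap-binding protein, at log2 intensities of 9.60 and 9.88 in GSC and 11.19 and 11.68 in HF (adjusted p = 0.041), whose adjusted p reached 0.223 with 1 array left out.

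Spermatogonial stem cell factors were higher for 16 and lower for 1 of 25 tested genes out of 28 on the array (median 3.62, 2.42 with bounds, 14 to 15 higher and 1 to 1 lower with 1 array left out). The receptor Ret had log2 intensities of 14.03 and 14.42 in GSC and 4.96 and 4.98 in HF, at least 220-fold higher (log2 difference 9.26, SE 0.35, adjusted p = 3.33e-05). Its co-receptor Gfra1 had log2 intensities of 7.22 and 7.05 in GSC and 6.02 and 5.62 in HF, at least 1.61-fold higher, a small difference just above background. Among transcription factors, Sall4 had log2 intensities of 13.38 and 13.25 in GSC and 5.67 and 4.92 in HF, at least 117-fold higher (log2 difference 8.02, SE 0.46, adjusted p = 0.000114). Zbtb16, also known as Plzf, had log2 intensities of 9.79 and 10.57 in GSC and 6.07 and 6.83 in HF, 13.3-fold higher, with 1 of the HF arrays detected. Bcl6b, which GDNF induces in cultured stem cells, was at least 51.4-fold higher and Egr2 at least 42.6-fold higher. Uchl1, a ubiquitin hydrolase that marks undifferentiated spermatogonia, had log2 intensities of 13.22 and 13.82 in GSC and 6.42 and 6.96 in HF, 114-fold higher (log2 difference 6.83, SE 0.41, adjusted p = 0.000114). Thy1, a surface protein used to sort them and also expressed by fibroblasts, had log2 intensities of 11.47 and 11.99 in GSC and 4.996 and 5.27 in HF, at least 38.9-fold higher. The lower member was Id2, an inhibitor of basic helix-loop-helix factors, with log2 intensities of 5.09 and 5.55 in GSC and 10.10 and 9.42 in HF, at least 14.1-fold lower.

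Genes of spermatogonial differentiation were higher for 9 and lower for 1 of 16 tested (median 2.58, 1.74 with bounds, 7 to 9 higher and 1 to 1 lower with 1 array left out). Sohlh1, a basic helix-loop-helix factor that starts differentiation, had log2 intensities of 14.33 and 14.68 in GSC and 6.02 and 5.70 in HF, at least 266-fold higher (log2 difference 8.64, SE 0.45, adjusted p = 7.99e-05). Crabp1, a retinoic acid binding protein, had log2 intensities of 11.26 and 11.95 in GSC and 4.80 and 4.90 in HF, at least 35.7-fold higher (log2 difference 6.75, SE 0.51, adjusted p = 0.000228). Kit, the receptor that marks differentiating spermatogonia, had log2 intensities of 8.73 and 8.50 in GSC and 5.24 and 5.02 in HF, at least 4.5-fold higher. Its ligand Kitl went the other way, at log2 intensities of 5.25 and 5.10 in GSC and 9.87 and 7.68 in HF, at least 7.12-fold lower, so receptor and ligand were detected in different groups. Stra8, which retinoic acid induces before meiosis, was undetected on all 4 arrays. Rara, Rarg and Dmrt1 were among the 6 that did not pass.

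X-linked and cancer-testis genes had a median log2 difference of 5.47, 4.22 with bounds, with 20 higher and 0 lower of 24 tested out of 33 on the array (19 to 22 higher and 0 to 0 lower with 1 array left out). Taf7l, a germ cell paralog of a general transcription factor subunit, had log2 intensities of 14.66 and 13.45 in GSC and 4.91 and 4.88 in HF, at least 196-fold higher (log2 difference 9.17, SE 0.68, adjusted p = 0.000221). Tex13b had log2 intensities of 13.35 and 12.65 in GSC and 4.95 and 4.98 in HF, at least 94.1-fold higher. Magea2 and Magea5, members of a family first known from tumours, were at least 102-fold higher and at least 59.4-fold higher. The homeobox genes Rhox13 and Rhox10 were at least 42-fold higher and at least 23.1-fold higher. In this list 1 gene was detected on both HF arrays and 23 on both GSC arrays.

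Every tested member of the pluripotency list passed, 18 higher and 3 lower of 21, while 9 of its 30 genes on the array were undetected on all arrays (13 to 17 higher and 1 to 2 lower with 1 array left out). Pou5f1, the Oct4 factor of pluripotent and germ cells, had log2 intensities of 10.49 and 11.11 in GSC and 6.61 and 6.81 in HF, 17.1-fold higher (log2 difference 4.10, SE 0.51, adjusted p = 0.00128). Its HF values were just above detection. Dppa4, a chromatin factor of early embryo and germline, had log2 intensities of 13.70 and 13.17 in GSC and 4.91 and 4.84 in HF, at least 127-fold higher (log2 difference 8.56, SE 0.51, adjusted p = 0.000114). Tcl1, an activator of Akt, had log2 intensities of 13.04 and 12.77 in GSC and 5.30 and 5.02 in HF, at least 88-fold higher. Dppa5a, an RNA-binding protein, had log2 intensities of 12.13 and 12.69 in GSC and 6.59 and 6.81 in HF, 52.5-fold higher. Nanog and Sox2, the partners of Oct4 in embryonic stem cells, were undetected on all 4 arrays, with GSC values of at most 5.51. The lower members were Myc, with log2 intensities of 5.28 and 5.34 in GSC and 8.17 and 8.76 in HF (at least 5.76-fold lower), Tbx3 (3.79-fold lower) and Klf5 (3.47-fold lower). The calls of Tbx3 and Klf5 were lost with 1 array left out, at adjusted p up to 0.174 and 0.203.

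Meiosis genes that passed were all higher in GSC. Of 27 on the array 14 were tested, of which 9 were higher and 0 lower, with 5 not passing (median 2.42, 1.51 with bounds, 5 to 10 higher with 1 array left out), and 8 were undetected on every array. The synaptonemal complex protein Syce3 had log2 intensities of 12.17 and 12.81 in GSC and 4.97 and 5.01 in HF, at least 65.9-fold higher (log2 difference 7.50, SE 0.44, adjusted p = 0.000114). The meiotic cohesins Stag3 and Rec8 had log2 intensities of 13.43 and 12.67 in GSC and 8.60 and 8.24 in HF for Stag3, 24.7-fold higher, and log2 intensities of 8.88 and 9.76 in GSC and 5.01 and 5.09 in HF for Rec8, at least 7.32-fold higher. Hormad2, a protein of unpaired chromosome axes, was at least 8.16-fold higher. The synaptonemal complex genes Sycp1, Sycp2 and Sycp3 and the meiotic recombinase Dmc1 were not tested for lack of detection on 2 arrays of a group. Spo11, which makes the meiotic breaks, was tested and did not pass. Markers of spermatocytes and spermatids were detected for 9 of 23 in GSC and 3 of 23 in HF, with summed linear levels of 4527 to 5063 and 1472 to 1487. Prm1 and Acr, genes of sperm heads, were undetected on all 4 arrays. The part of later germ cells in the meiosis counts was not tested. Sertoli, Leydig and peritubular markers were detected for 8 of 20 in GSC and 4 of 20 in HF, with summed linear levels of 9884.5 to 12870.8 and 6590.7 to 6897. Of 10 tested, 4 were higher and 1 lower in GSC, and Amh and Gata4 were undetected on all 4 arrays. The part of such cells in the GSC values was not tested. In bulk RNA, fewer cells of a type and less RNA per cell cannot be told apart.

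Imprinted genes, expressed from one parental copy, were higher for 11 and lower for 2 of 21 tested out of 34 on the array (median 1.63, 0.44 with bounds, 10 to 11 higher and 0 to 1 lower with 1 array left out). Igf2, a fetal growth factor, had log2 intensities of 13.93 and 14.13 in GSC and 5.10 and 5.44 in HF, at least 191-fold higher (log2 difference 8.76, SE 0.36, adjusted p = 3.33e-05). Ndn, a growth-restraining protein of the Mage family, had log2 intensities of 13.45 and 13.27 in GSC and 8.30 and 7.75 in HF, 40.4-fold higher (log2 difference 5.34, SE 0.37, adjusted p = 0.000181). For both genes the GSC arrays lay far above the HF arrays without overlap. Dcn, a small matrix proteoglycan, had log2 intensities of 13.56 and 12.75 in GSC and 5.22 and 4.93 in HF, at least 105-fold higher. The lower members were Gnas (4.3-fold lower), for which another probe had the opposite sign and the mean over detected probes did not pass, and Peg10 (at least 2.69-fold lower), with adjusted p of up to 0.0924 and 0.128 with 1 array left out.

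**Figure D5:**
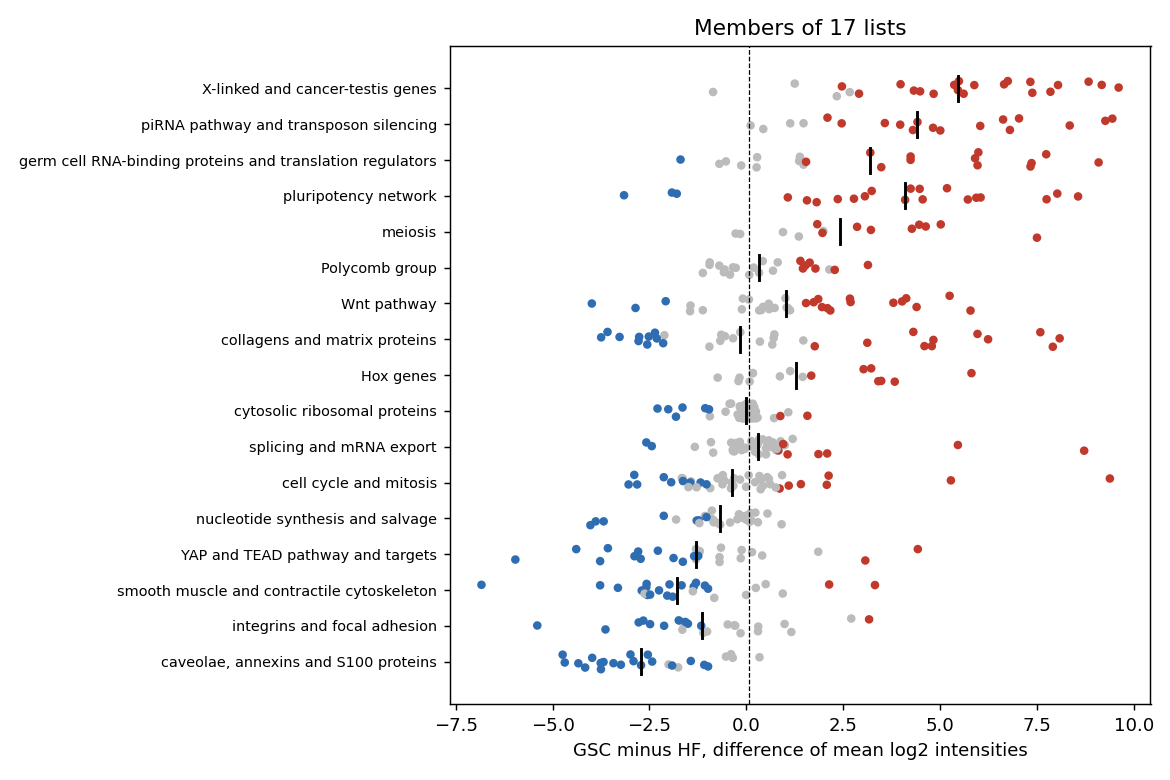
Difference of mean log2 intensities, GSC minus HF, for each tested member of 17 lists, with higher genes in red, lower in blue and those that did not pass in grey. Black bars mark list medians and the dashed line the median of all tested genes, 0.07. Medians run from -2.72 for caveolae, annexins and S100 proteins to 5.47 for X-linked and cancer-testis genes.

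Chromatin regulators that passed were mainly higher in GSC. DNA methylation genes were higher for 5 and lower for 1 of 15 (median 0.78, 0.53 with bounds, 5 to 6 higher with 1 array left out). The de novo methyltransferase Dnmt3b had log2 intensities of 13.12 and 13.35 in GSC and 8.61 and 9.35 in HF, 19.14-fold higher (log2 difference 4.26, SE 0.40, adjusted p = 0.000485). Its cofactor Dnmt3l had log2 intensities of 9.26 and 10.36 in GSC and 5.07 and 5.01 in HF, at least 10.3-fold higher. Mbd2, a reader of methylated DNA, had log2 intensities of 12.59 and 12.63 in GSC and 5.81 and 7.31 in HF, 66.3-fold higher (log2 difference 6.05, SE 0.55, adjusted p = 0.00042). The oxidases Tet1 and Tet3 were at least 1.45-fold higher and at least 1.89-fold higher, both near background. The lower member, the cytidine deaminase Apobec1 (3.36-fold lower), lost its call with any 1 of the 4 arrays left out. Polycomb genes were higher for 7 and lower for 0 of 23 (median 0.33, 3 to 4 higher with 1 array left out). Among them Kdm2b, which recruits a Polycomb complex to CpG islands, had log2 intensities of 12.16 and 12.32 in GSC and 9.85 and 10.07 in HF, 4.86-fold higher. Cbx2, a Polycomb subunit that binds methylated histone H3, had log2 intensities of 10.18 and 11.09 in GSC and 7.21 and 7.78 in HF, 8.79-fold higher.

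Repressors that silence germline genes in somatic cells were detected in both groups. All 18 tested members were above detection on all 4 arrays, 5 were higher and 0 lower (median 0.55), and the higher count fell to 1 to 2 with 1 array left out. Wdr5, a subunit shared by several histone-modifying complexes, had log2 intensities of 12.34 and 12.38 in GSC and 10.65 and 10.85 in HF, 3.06-fold higher (log2 difference 1.62, SE 0.29, adjusted p = 0.00626). E2f6 had log2 intensities of 13.30 and 13.10 in GSC and 12.22 and 11.96 in HF, 2.16-fold higher, but another of its probes had the opposite sign and the call was lost with any 1 of the 4 arrays left out. Trim28 (1.6-fold higher), Setdb1 (2.83-fold higher) and Pcgf6 (2.63-fold higher) lost their calls in the same way, at adjusted p up to 0.176, 0.195 and 0.21. Histones and their chaperones gave 1 higher and 2 lower of 20, and recombination and mismatch repair genes 3 and 1 of 24 (median 0.86). All 7 of these calls were lost with at least 1 array left out, Rad51c (4.38-fold higher) at adjusted p up to 0.0925.

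Cell cycle genes did not lean firmly either way, with 7 higher and 9 lower of 44 (median -0.36). With 1 array left out the counts were 2 to 4 higher and 1 to 5 lower, and the larger side changed without HF replicate 1 and without GSC replicate 1. The differences of single inhibitors were large. Cdkn2b, the p15 inhibitor, had log2 intensities of 10.33 and 10.20 in GSC and 4.998 and 4.98 in HF, at least 14.1-fold higher (log2 difference 5.28, SE 0.51, adjusted p = 0.000515). Cdkn1b, the p27 inhibitor, had log2 intensities of 5.95 and 7.27 in GSC and 9.51 and 9.49 in HF, 7.43-fold lower, and its adjusted p reached 0.0561 with 1 array left out. Cdk6, a G1 kinase, had log2 intensities of 5.18 and 5.31 in GSC and 6.48 and 6.91 in HF, at least 1.68-fold lower. Targets of p53 were higher for 3 and lower for 3 of 23 (2 to 3 higher and 0 to 1 lower with 1 array left out). Ddb2 and Xpc, which recognise ultraviolet damage in DNA, were 8.18-fold higher and 5.63-fold higher.

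Many genes of the membrane pits, contractile filaments and adhesions of somatic cells were lower in GSC. In the list of caveolae, annexins and S100 proteins 19 of 25 tested genes were lower and 0 higher (median -2.72, 13 to 17 lower with 1 array left out), and all 25 were detected on both HF arrays. Cav2, a caveolin of membrane pits, had log2 intensities of 5.53 and 5.21 in GSC and 10.28 and 9.94 in HF, at least 18-fold lower (log2 difference -4.74, SE 0.58, adjusted p = 0.00119). S100a1, a calcium-binding protein, had log2 intensities of 5.25 and 5.37 in GSC and 9.53 and 10.45 in HF, at least 16.6-fold lower (log2 difference -4.69, SE 0.43, adjusted p = 0.000458). Both were at background on the GSC arrays. Anxa3, a phospholipid-binding annexin, had log2 intensities of 10.76 and 9.71 in GSC and 14.20 and 13.77 in HF, 13.5-fold lower. S100a11 stayed bright in both groups, with log2 intensities of 13.07 and 13.12 in GSC and 15.85 and 15.78 in HF, 6.58-fold lower. S100a3 was at least 13.1-fold lower.

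Contractile and cytoskeletal genes were lower for 17 and higher for 2 of 26 (median -1.79, 0 to 2 higher and 7 to 13 lower with 1 array left out). Csrp1, a LIM protein of smooth muscle, had log2 intensities of 5.01 and 5.11 in GSC and 11.94 and 11.84 in HF, at least 61.9-fold lower (log2 difference -6.83, SE 0.48, adjusted p = 0.000187). Vim, the intermediate filament of mesenchymal cells, had log2 intensities of 10.35 and 10.86 in GSC and 14.36 and 14.39 in HF, 13.7-fold lower (log2 difference -3.77, SE 0.66, adjusted p = 0.00509). Tropomyosins, which line actin filaments, were lower too, with log2 intensities of 11.87 and 11.76 in GSC and 14.61 and 14.42 in HF for Tpm1 (6.5-fold lower) and log2 intensities of 11.54 and 10.37 in GSC and 14.57 and 13.97 in HF for Tpm4 (9.94-fold lower). Actg2, an enteric smooth muscle actin, was at least 4.16-fold lower. The exceptions were Acta2, the vascular smooth muscle actin, with log2 intensities of 11.002 and 11.62 in GSC and 7.30 and 8.69 in HF (9.97-fold higher), and Mylk, the myosin light chain kinase (4.39-fold higher). Their adjusted p reached 0.0691 and 0.124 with 1 array left out, and the mean over detected probes gave Acta2 an adjusted p of 0.0698.

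Integrins and focal adhesion genes were lower for 10 and higher for 1 of 24 (median -1.14, 1 to 2 higher and 4 to 6 lower with 1 array left out). Itgb7, a leukocyte integrin chain, had log2 intensities of 5.73 and 7.37 in GSC and 11.66 and 12.23 in HF, 42.1-fold lower (log2 difference -5.39, SE 0.73, adjusted p = 0.00175). Itga3, a laminin receptor chain, had log2 intensities of 10.29 and 10.70 in GSC and 13.25 and 13.29 in HF, 6.86-fold lower. Ilk, a scaffold of focal adhesions, had log2 intensities of 12.33 and 12.79 in GSC and 14.003 and 14.13 in HF, 2.85-fold lower. The higher member was Itgb4, the chain of hemidesmosomes that binds laminin, with log2 intensities of 8.74 and 9.61 in GSC and 5.97 and 6.04 in HF, at least 6.62-fold higher.

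YAP and TEAD genes, which respond to stretch and contact, were lower for 12 and higher for 2 of 25 (median -1.30, 2 to 3 higher and 4 to 5 lower with 1 array left out). Ankrd1, a YAP target, had log2 intensities of 6.08 and 5.95 in GSC and 11.88 and 12.07 in HF, 62.3-fold lower (log2 difference -5.96, SE 0.71, adjusted p = 0.00109). The TEAD factors themselves diverged. Tead4 had log2 intensities of 6.16 and 6.98 in GSC and 9.79 and 10.51 in HF, 11.9-fold lower, while Tead2 had log2 intensities of 12.80 and 13.20 in GSC and 8.30 and 8.85 in HF, 21.5-fold higher (log2 difference 4.42, SE 0.36, adjusted p = 0.000294). Fjx1, another gene of the target list, was 8.39-fold higher.

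Matrix genes went both ways, 11 higher and 10 lower of 33 tested out of 43 on the array (median -0.16, 9 to 10 higher and 4 to 8 lower with 1 array left out). The lower side became the larger when 1 or the other HFGSC array was left out. Among the higher genes, Nid2, a basement membrane linker, had log2 intensities of 13.16 and 13.40 in GSC and 5.74 and 5.66 in HF, at least 114-fold higher (log2 difference 7.58, SE 0.37, adjusted p = 7.11e-05). Col6a1, a beaded-filament collagen chain, had log2 intensities of 13.05 and 12.99 in GSC and 5.19 and 5.04 in HF, at least 95.1-fold higher (log2 difference 7.91, SE 0.53, adjusted p = 0.000159). Bgn, a proteoglycan related to decorin, had log2 intensities of 13.09 and 13.07 in GSC and 6.93 and 6.75 in HF, 75.4-fold higher. Fbln1, a fibulin, was 28.3-fold higher. Among the lower genes, Col18a1, the source of endostatin, had log2 intensities of 11.82 and 12.08 in GSC and 14.48 and 14.54 in HF, 5.88-fold lower (log2 difference -2.56, SE 0.28, adjusted p = 0.000796). The laminin chains Lamc1 and Lamb3 were 4.43-fold lower and at least 8.18-fold lower. Col1a1, the main fibrillar collagen, was bright in both groups with log2 intensities of 11.67 and 12.11 in GSC and 12.92 and 12.77 in HF and did not pass (adjusted p = 0.199). Fibroblast markers were detected for 15 of 23 in GSC and 7 of 23 in HF, with 8 higher and 3 lower of 16 tested, yet their summed linear level was 29256 to 29804 in GSC and 36966 to 40670 in HF. Pdgfra, a fibroblast receptor, had log2 intensities of 9.33 and 8.11 in GSC and 5.15 and 4.95 in HF, at least 4.83-fold higher, although another of its probes had the opposite sign and the mean over probes gave a log2 difference of 1.54, and Lum was undetected on all 4 arrays. The part of fibroblasts in these matrix values was not tested.

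Proteases, inhibitors and crosslinkers of the matrix were lower for 11 and higher for 3 of 32 (median -1.35, -1.22 with bounds, 2 to 2 higher and 7 to 8 lower with 1 array left out). Serpinb2, an inhibitor of plasminogen activators, had log2 intensities of 5.32 and 4.88 in GSC and 10.93 and 10.71 in HF, at least 29.4-fold lower (log2 difference -5.72, SE 0.40, adjusted p = 0.000181). Htra1, a secreted serine protease, had log2 intensities of 5.90 and 6.28 in GSC and 12.31 and 12.68 in HF, 84.7-fold lower. The collagenase Mmp13 had log2 intensities of 5.42 and 4.98 in GSC and 8.06 and 9.20 in HF, at least 6.45-fold lower. In the other direction Lox, which crosslinks collagen, had log2 intensities of 11.29 and 10.29 in GSC and 5.12 and 5.07 in HF, at least 20.3-fold higher (log2 difference 5.70, SE 0.61, adjusted p = 0.000775).

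Junction and keratin genes were few. Epithelial junction genes were higher for 7 and lower for 4 of 24 (3 to 4 higher and 1 to 2 lower with 1 array left out). The connexins split, with log2 intensities of 10.91 and 10.57 in GSC and 5.09 and 5.11 in HF for Gjb2 (at least 19.6-fold higher) and log2 intensities of 8.74 and 8.71 in GSC and 14.36 and 14.11 in HF for Gja1 (45.5-fold lower). Cdh3, the placental cadherin, had log2 intensities of 9.70 and 10.68 in GSC and 4.99 and 5.54 in HF, at least 13.4-fold higher (log2 difference 4.92, SE 0.56, adjusted p = 0.000906). Ocln, a tight junction protein, was at least 3.66-fold higher. Of 29 keratins on the array 19 were undetected on all arrays and 7 were tested. Krt17, a keratin of the follicle, had log2 intensities of 7.44 and 8.68 in GSC and 4.94 and 4.97 in HF, at least 3.05-fold higher. Krt23 was at least 5.71-fold higher. Keratins that passed numbered 3 higher and 1 lower, and with 1 array left out the lower one, Krt80, lost its call without either GSC replicate and Krt27, a higher one, without HF replicate 1 (adjusted p = 0.0896).

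Hox genes, which set body position, were higher for 7 and lower for 0 of 16 tested out of 38 on the array (median 1.29, 0.22 with bounds, 4 to 5 higher with 1 array left out). Hoxb7 had log2 intensities of 10.64 and 11.28 in GSC and 5.41 and 4.89 in HF, at least 22.8-fold higher (log2 difference 5.81, SE 0.51, adjusted p = 0.000402). The neighbours Hoxb5 and Hoxb6 were at least 6.32-fold higher and at least 3.46-fold higher, and Hoxb2 at least 6.23-fold higher. Transcription factors of skin and mesenchyme split evenly, 11 higher and 11 lower of 32 (4 to 7 higher and 7 to 9 lower with 1 array left out). Tfap2b, an AP-2 factor, had log2 intensities of 5.12 and 5.27 in GSC and 11.30 and 10.93 in HF, at least 36.1-fold lower (log2 difference -5.92, SE 0.41, adjusted p = 0.000186). Gata6, a zinc finger factor of endoderm and mesoderm, had log2 intensities of 5.18 and 5.29 in GSC and 11.0001 and 11.17 in HF, at least 35.4-fold lower (log2 difference -5.85, SE 0.42, adjusted p = 0.000199). Gata3, a factor of the inner root sheath, and Runx1 were at least 9.04-fold lower and at least 6.07-fold lower. Dlx3, a homeobox factor of hair differentiation, was the reverse, with log2 intensities of 10.59 and 11.24 in GSC and 6.32 and 6.84 in HF, 20.2-fold higher.

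Wnt genes leaned to the GSC side, with 14 higher and 3 lower of 34 (median 1.02, 0.66 with bounds, 7 to 12 higher and 2 to 2 lower with 1 array left out). Among receptors, Fzd10 had log2 intensities of 10.67 and 11.36 in GSC and 5.41 and 5.05 in HF, at least 23.7-fold higher (log2 difference 5.78, SE 0.56, adjusted p = 0.000521) and Fzd3 was at least 17.6-fold higher. Dkk3, a secreted protein of the Dickkopf family, was at least 7.76-fold higher, and Sp5, a target gene of the pathway, at least 5.55-fold higher. The ligand Wnt7b went the other way, with log2 intensities of 5.16 and 5.34 in GSC and 7.91 and 8.32 in HF, at least 4.5-fold lower. Lgr6, a receptor of follicle progenitors, had log2 intensities of 5.28 and 5.52 in GSC and 8.83 and 9.94 in HF, at least 10.9-fold lower.

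FGF and ERK genes were higher for 9 and lower for 3 of 21 tested out of 31 on the array (median 0.34, 0.17 with bounds, 4 to 6 higher and 0 to 2 lower with 1 array left out). Fgfr2, a receptor, had log2 intensities of 9.43 and 9.26 in GSC and 5.13 and 5.20 in HF, at least 7.45-fold higher (log2 difference 4.18, SE 0.44, adjusted p = 0.00076). The feedback inhibitors Dusp6 and Il17rd had log2 intensities of 14.38 and 14.38 in GSC and 12.94 and 13.15 in HF for Dusp6 (2.52-fold higher) and log2 intensities of 10.88 and 11.34 in GSC and 8.01 and 8.47 in HF for Il17rd (7.3-fold higher). The call of Dusp6 was lost with median scaling in place of quantile normalization. Dusp4, another phosphatase of ERK, was 4.13-fold lower, with adjusted p up to 0.0973 with 1 array left out. Growth factor genes were higher for 11 and lower for 5 of 35 (9 to 10 higher and 2 to 4 lower with 1 array left out). Of the IGF-binding proteins, Igfbp2, Igfbp5 and Igfbp6 were at least 7.53-fold higher, at least 14.3-fold higher and at least 23-fold higher, and Igfbp7 had log2 intensities of 9.89 and 9.33 in GSC and 13.43 and 13.20 in HF, 13.1-fold lower (log2 difference -3.71, SE 0.57, adjusted p = 0.00306).

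In the BMP and TGF-beta list 5 were higher and 5 lower of 35 (median 0.04, 5 to 7 higher and 2 to 2 lower with 1 array left out). Acvr2b, an activin receptor, had log2 intensities of 13.01 and 13.41 in GSC and 9.18 and 9.36 in HF, 15.4-fold higher (log2 difference 3.94, SE 0.39, adjusted p = 0.000559). The ligands Bmp7 and Bmp8b were at least 8.95-fold higher and at least 2.47-fold higher. Eng, a co-receptor of endothelial and stromal cells, had log2 intensities of 5.44 and 6.25 in GSC and 11.97 and 12.01 in HF, 70.6-fold lower (log2 difference -6.14, SE 0.70, adjusted p = 0.000911). Ltbp1, which stores latent TGF-beta in the matrix, was at least 16.4-fold lower. Notch and Hedgehog genes were higher for 6 and lower for 2 of 19 tested out of 34 on the array (2 to 5 higher and 0 to 1 lower with 1 array left out). The Notch target Hey1 had log2 intensities of 11.03 and 11.27 in GSC and 5.28 and 5.47 in HF, at least 26.1-fold higher (log2 difference 5.77, SE 0.60, adjusted p = 0.000707), and Hes1 was 3.81-fold higher.

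Retinoid genes were higher for 5 and lower for 2 of 17 (3 to 5 higher and 1 to 1 lower with 1 array left out). Adh7, an alcohol dehydrogenase that oxidises retinol, had log2 intensities of 5.38 and 5.36 in GSC and 10.60 and 12.09 in HF, at least 42.3-fold lower (log2 difference -5.98, SE 0.56, adjusted p = 0.000482). Aldh1a3, which makes retinoic acid from retinal, had log2 intensities of 8.998 and 9.51 in GSC and 5.10 and 5.10 in HF, at least 7-fold higher (log2 difference 4.15, SE 0.49, adjusted p = 0.00108). Adh1, another retinol-oxidising enzyme, was at least 2-fold higher. The 2 dehydrogenases of the same step were thus detected in different groups.

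Immune genes that passed were more often lower than higher. Cytokine receptor and NF-kB genes were lower for 10 and higher for 1 of 31 (median -0.94, 0 to 1 higher and 6 to 8 lower with 1 array left out). Il6st, the signal chain shared by interleukin-6 family receptors, had log2 intensities of 5.75 and 5.72 in GSC and 9.98 and 9.79 in HF, at least 15.4-fold lower (log2 difference -4.15, SE 0.47, adjusted p = 0.000909). Its partner Il6ra was 7.56-fold lower, Il17ra at least 3.63-fold lower and Tnfrsf12a, the TWEAK receptor, 10.2-fold lower. Cytokines gave 4 higher and 5 lower of 18 tested out of 35 on the array (2 to 3 higher and 2 to 4 lower with 1 array left out, the larger side turning without HF replicate 2 and GSC replicate 1). Il24, a cytokine of the interleukin-10 family, had log2 intensities of 5.35 and 5.62 in GSC and 11.42 and 12.01 in HF, at least 54.8-fold lower (log2 difference -6.23, SE 0.47, adjusted p = 0.000232). The chemokine Ccl5 was at least 18.6-fold lower, while Cxcl1, a neutrophil attractant, had log2 intensities of 11.31 and 12.07 in GSC and 4.99 and 5.37 in HF, at least 37.9-fold higher (log2 difference 6.51, SE 0.91, adjusted p = 0.00202). Interferon and antigen presentation genes were lower for 9 and higher for 4 of 32 (median -1.001, -0.89 with bounds), with 3 to 5 higher and 3 to 5 lower with 1 array left out and the larger side turned without GSC replicate 2. Ifit2, an interferon-induced protein, had log2 intensities of 6.43 and 5.30 in GSC and 9.39 and 8.52 in HF, 8.52-fold lower. Irf1, an interferon response factor, had log2 intensities of 13.33 and 13.49 in GSC and 11.15 and 11.48 in HF, 4.27-fold higher (log2 difference 2.10, SE 0.26, adjusted p = 0.00134). Leukocyte markers were detected for 5 of 18 in GSC and 2 of 18 in HF, with summed linear levels of 3151 to 4286 and 2402 to 3131, and their part in these values was not tested.

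Glycolysis genes went both ways, with 4 higher and 7 lower of 26 (median -0.61, 3 to 3 higher and 2 to 6 lower with 1 array left out, the larger side turning without HF replicate 1). Slc2a3, a high-affinity glucose transporter, had log2 intensities of 12.64 and 12.76 in GSC and 5.54 and 6.38 in HF, at least 76.2-fold higher (log2 difference 6.74, SE 0.43, adjusted p = 0.00014). Aldoc, the brain-type aldolase, had log2 intensities of 12.25 and 12.70 in GSC and 5.995 and 5.83 in HF, at least 65.3-fold higher (log2 difference 6.57, SE 0.42, adjusted p = 0.00014). Ldhc, the lactate dehydrogenase of germ cells, had log2 intensities of 8.99 and 8.87 in GSC and 4.99 and 4.89 in HF, at least 5.6-fold higher. Eno3, the muscle-type enolase, had log2 intensities of 8.99 and 9.93 in GSC and 12.17 and 13.20 in HF, 9.39-fold lower. Pdk4, which shuts off pyruvate dehydrogenase, was at least 2.66-fold lower. TCA cycle genes gave 1 higher and 3 lower of 20 (1 to 1 higher and 1 to 3 lower with 1 array left out), with Idh3a, a subunit of isocitrate dehydrogenase, 7.8-fold lower, and Acly, which turns citrate into acetyl-CoA, 2.52-fold higher, a call lost with median scaling. The respiratory chain gave 4 and 5 of 47, below the shares of all genes, and 2 to 3 higher and 0 to 2 lower with 1 array left out, where the larger side turned whichever of the 4 was left out. Cox6b2, the testis form of a cytochrome oxidase subunit, had log2 intensities of 8.56 and 9.25 in GSC and 5.55 and 5.69 in HF, at least 5.49-fold higher.

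Lipid genes were mixed. Fatty acid genes were higher for 7 and lower for 11 of 40 (median -0.56, 3 to 4 higher and 4 to 8 lower with 1 array left out). Acsl5, an acyl-CoA synthetase, had log2 intensities of 9.21 and 8.67 in GSC and 13.13 and 13.10 in HF, 18.1-fold lower (log2 difference -4.18, SE 0.43, adjusted p = 0.000681). Dgat2, which completes triglyceride synthesis, had log2 intensities of 12.31 and 12.82 in GSC and 7.83 and 8.92 in HF, 18.2-fold higher (log2 difference 4.19, SE 0.45, adjusted p = 0.000796). Pparg, a regulator of fat storage, had log2 intensities of 4.96 and 5.12 in GSC and 7.39 and 8.68 in HF, at least 4.27-fold lower. Acacb, the mitochondrial acetyl-CoA carboxylase, and the carrier Fabp3 were at least 10.3-fold higher and at least 4.77-fold higher. Cholesterol genes gave 4 higher and 2 lower of 24 (1 to 2 higher and 0 to 1 lower with 1 array left out), with Insig1, a sterol sensor, 4.1-fold higher.

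Amino acid genes were lower for 8 and higher for 4 of 28 (median -0.70, 1 to 4 higher and 4 to 8 lower with 1 array left out). Slc7a11, the cystine importer, had log2 intensities of 5.62 and 6.06 in GSC and 8.35 and 9.59 in HF, 8.75-fold lower. Glud1, glutamate dehydrogenase, was 3.23-fold lower, and Arg2, the mitochondrial arginase, at least 7.47-fold higher. Serine and one-carbon genes gave 3 higher and 5 lower of 20 (1 to 2 higher and 1 to 5 lower with 1 array left out, the larger side turning without GSC replicate 1 and with the mean over detected probes), with Psat1, an enzyme of serine synthesis, 3.62-fold lower. Nucleotide genes were lower for 7 and higher for 0 of 31 (median -0.68, 4 to 5 lower with 1 array left out). Ada, adenosine deaminase, had log2 intensities of 5.56 and 6.59 in GSC and 9.04 and 10.48 in HF, 12.8-fold lower (log2 difference -3.68, SE 0.64, adjusted p = 0.00524). Adssl1, the muscle form of adenylosuccinate synthase, had log2 intensities of 7.21 and 7.89 in GSC and 10.92 and 12.22 in HF, 16.3-fold lower.

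Detoxification enzymes were called often on both sides, 12 higher and 13 lower of 49 (6 to 9 higher and 3 to 7 lower with 1 array left out, the larger side turning without HF replicate 1 and either GSC replicate). The glutathione transferases Gsta3 and Gsta4 were at least 18.7-fold higher and at least 24-fold higher. Cbr3, a carbonyl reductase, had log2 intensities of 10.57 and 11.24 in GSC and 5.67 and 5.90 in HF, at least 22-fold higher (log2 difference 5.12, SE 0.56, adjusted p = 0.000816). Gpx7, a peroxidase of the secretory pathway, was at least 2.51-fold higher. Of the lower members, Adh7, which also belongs to the retinoid list described above, was at least 42.3-fold lower. Iron genes gave 2 higher and 5 lower of 22 (1 to 2 higher and 2 to 4 lower with 1 array left out). Trf, the iron carrier transferrin, had log2 intensities of 11.52 and 11.73 in GSC and 5.54 and 5.72 in HF, at least 36.1-fold higher (log2 difference 5.99, SE 0.48, adjusted p = 0.000277). Steap2, a ferric reductase, had log2 intensities of 8.01 and 8.10 in GSC and 12.15 and 12.16 in HF, 17.1-fold lower, and the transporter Slc39a14 was 8.44-fold lower.

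In the lists of ribosomal proteins, ribosome biogenesis, proteasome and splicing, the share that passed stayed below the 32.1% of all genes. Ribosomal proteins were higher for 2 and lower for 6 of 49 (median -0.02, 1 to 2 higher and 3 to 4 lower with 1 array left out). Rps3 had log2 intensities of 12.63 and 11.95 in GSC and 14.68 and 14.49 in HF, 4.9-fold lower (log2 difference -2.29, SE 0.26, adjusted p = 0.000846). Rps4x was 4.04-fold lower and Rpl13a 3.13-fold lower, while Rpl24 was 2.98-fold higher. Ribosome biogenesis genes gave 3 and 1 of 32 (1 to 2 higher and 0 to 0 lower with 1 array left out), with Rrp12, a ribosome export factor, 2.95-fold higher. Proteasome genes gave 5 and 1 of 32 (1 to 3 higher and 0 to 1 lower with 1 array left out). Psma8, the germ cell form of an alpha subunit, had log2 intensities of 11.02 and 10.92 in GSC and 4.93 and 4.90 in HF, at least 23-fold higher (log2 difference 6.06, SE 0.78, adjusted p = 0.00149), and the other 4 higher calls, of at most 2.09-fold, were each lost with 1 array left out. Splicing and export genes gave 7 and 2 of 44 (median 0.31, 4 to 5 higher and 0 to 2 lower with 1 array left out). Nxf2, an X-linked export factor, had log2 intensities of 11.63 and 9.44 in GSC and 5.02 and 5.13 in HF, at least 17-fold higher. Mbnl1 and Mbnl2, splicing factors that favour differentiated isoforms, were 5.43-fold lower and 5.98-fold lower, with adjusted p up to 0.133 and 0.0823 with 1 array left out.

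Endoplasmic reticulum genes that passed were more often lower than higher in GSC, while the lower share of heat shock genes lay near that of all genes. Endoplasmic reticulum genes were lower for 13 and higher for 3 of 38 (median -0.84, -0.83 with bounds, 1 to 3 higher and 2 to 6 lower with 1 array left out). Chac1, a target of the stress factor Atf4, had log2 intensities of 9.06 and 9.95 in GSC and 12.83 and 13.98 in HF, 14.9-fold lower (log2 difference -3.90, SE 0.52, adjusted p = 0.00163). Ppp1r15a, which restores translation after stress, had log2 intensities of 12.97 and 13.03 in GSC and 11.16 and 11.62 in HF, 3.06-fold higher. Heat shock genes gave 3 higher (8.33%) and 6 lower (16.7%) of 36, beside 19.5% and 12.6% of all tested genes (2 to 3 higher and 4 to 6 lower with 1 array left out). The small heat shock proteins Hspb1 and Hspb8 had log2 intensities of 6.67 and 7.39 in GSC and 10.06 and 11.73 in HF for Hspb1 (14.6-fold lower) and log2 intensities of 9.76 and 10.12 in GSC and 13.30 and 13.30 in HF for Hspb8 (10.3-fold lower). Hspa2, a chaperone of male germ cells, had log2 intensities of 12.76 and 12.80 in GSC and 10.73 and 10.81 in HF, 4.03-fold higher (log2 difference 2.01, SE 0.35, adjusted p = 0.00505). Lysosome and autophagy genes gave 5 and 8 of 42 (2 to 4 higher and 2 to 4 lower with 1 array left out, the larger side turning without HF replicate 2 and without GSC replicate 1), with Gpnmb, a glycoprotein of lysosomes and melanosomes, 32.4-fold lower.

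Cell death genes were higher for 6 and lower for 9 of 32 (median -0.68, 3 to 5 higher and 3 to 6 lower with 1 array left out). Mlkl, the executor of necroptosis, had log2 intensities of 6.17 and 5.74 in GSC and 11.82 and 11.62 in HF, 54.3-fold lower (log2 difference -5.76, SE 0.47, adjusted p = 0.00031). Casp8, which restrains necroptosis and starts apoptosis, had log2 intensities of 7.08 and 6.41 in GSC and 10.35 and 10.17 in HF, 11.5-fold lower. Bik, a BH3-only killer protein, had log2 intensities of 11.38 and 12.12 in GSC and 5.46 and 6.37 in HF, at least 39.5-fold higher (log2 difference 5.84, SE 0.55, adjusted p = 0.000485). Bok was 7.31-fold lower and Diablo, an antagonist of caspase inhibitors, 4.54-fold higher. Glycosyltransferases were lower for 11 and higher for 4 of 35 (median -0.94, 3 to 4 higher and 3 to 6 lower with 1 array left out). St6gal1, which adds alpha-linked sialic acid to N-glycans, had log2 intensities of 8.22 and 8.92 in GSC and 12.26 and 12.35 in HF, 13.3-fold lower (log2 difference -3.73, SE 0.41, adjusted p = 0.000826). Mgat3, which adds a bisecting residue, was 7.43-fold lower, while the heparan sulfate enzymes Hs3st1 and Hs3st3b1 were at least 5.86-fold higher and 10.9-fold higher.

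The HFGSC arrays were set beside GSC in the same model, in which 48 of 10913 genes (0.44%) passed between GSC and HFGSC, 29 higher (0.266%) and 19 lower (0.174%), in a comparison that shares the GSC arrays with the one above. With the replicate number as a block, genes differing between GSC and HFGSC numbered 174, and with no mean-variance trend 13. The count also rests on single arrays: it was 0 without HFGSC replicate 2 (541 genes at an unadjusted p under 0.05), 10 without GSC replicate 2, 17 without GSC replicate 1, 22 without HF replicate 1, 31 without HF replicate 2 and 54 without HFGSC replicate 1. Dlk1 had HFGSC arrays at 15.53 and 15.89, a GSC minus HFGSC log2 difference of -0.49 (adjusted p = 0.808). Ret had HFGSC arrays at 14.69 and 14.30, a GSC minus HFGSC log2 difference of -0.27 (adjusted p = 0.924). Neither passed, which does not show equal levels. Trf had HFGSC arrays at 6.77 and 7.04, a GSC minus HFGSC log2 difference of 4.72 (adjusted p = 0.0145). Rps3 had HFGSC arrays at 15.09 and 15.22, a GSC minus HFGSC log2 difference of -2.86 (adjusted p = 0.0119). Csrp1 had HFGSC arrays at 8.73 and 9.01, a GSC minus HFGSC log2 difference of -3.81 (adjusted p = 0.0303). In GSC both arrays were above those of the other groups for Trf and below them for Rps3 and Csrp1. Hoxb6 had HFGSC arrays at 5.22 and 5.31, a GSC minus HFGSC log2 difference of 2.97 (adjusted p = 0.0305), and Hoxb5 had a GSC minus HFGSC log2 difference of 2.96. St6gal1 had HFGSC arrays at 12.04 and 11.50, a GSC minus HFGSC log2 difference of -3.20 (adjusted p = 0.0303), with HFGSC close to the HF values given above. Col18a1, lower in GSC than in HF, had HFGSC arrays at 9.94 and 9.82, a GSC minus HFGSC log2 difference of 2.07 (adjusted p = 0.0316).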

How the data were processed

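Biotinylated cRNA made from total RNA was hybridised to Illumina mouse expression arrays, per the labels' protocols. The deposited intensity values are linear summaries without normalization, and the authors deposited a detection p-value with each. Another table by the authors gives log2 values, quantile normalized judging from their shared median of 7.046 and a gap of at most 0.148 to quantile-normalized log2 intensities, uncentred. Per the submitters' processing notes, GenomeStudio 2011.1 and R 3.0.2 were used. Of 45281 probes, 34885 had 1 gene symbol in the platform annotation, 18 several and 10378 none. Entrez identifiers matched RefSeq (GRCm38.p6) for 34807 probes, changing 0 symbols.

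Samples were grouped by title, leaving 0 value columns unused. Intensities were processed in R 4.3.3 with limma 3.58.1, by neqc (background from detection p-values, offset 16, quantile normalization, log2). Probes with detection p under 0.05 on both arrays of a group were kept, and the brightest stood for its gene. Linear models covered all 6 arrays (3 residual degrees of freedom), with a mean-variance trend and Benjamini-Hochberg adjustment at 0.05. The number of arrays limits the precision. A fold written "at least" sets the bright group's mean against a floor averaged over the dim arrays, the larger of the probe's signal and the lowest signal detected there. Other folds are differences of the group means. Methods were checked on simulated data with independently drawn arrays and far fewer changed genes than were called here. That check does not cover a replicate change shared between groups. Alternatives covered normalization, offset, filters, probe choice, trend, arrays fitted, replicate block and leaving out each array.

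Genes and lists were chosen with earlier results of these data known. Named genes are drawn from a rule: the 15 largest increases and decreases among called genes without overlap, up to 5 called members per list with the smallest adjusted p, up to 3 that moved against their list, and defining markers. Members named only as not passing or not tested, and Zbtb16, Gfra1, Kit, Thy1, Ddx4, Pou5f1, Pdgfra and Col1a1, were named for their role. Promoters came from RefSeq (GRCm38.p6), for 7024 tested genes with 1 entry.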

Additional observations from a re-analysis of the deposited data

Results flagged for a closer look

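Probes without a single gene symbol were left out of the comparisons above. Of 10396 such probes, both GSC arrays but no HF array detected 449, and both HF arrays but no GSC array 141. They were singled out as signal in data that the comparisons do not use, and no gene is assigned to them here.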

How the results depend on the processing

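Under 9 alternatives of background correction, normalization, filter, probe choice, trend and arrays fitted, the higher genes numbered 1886 (no mean-variance trend) to 2251 (only the GSC and HF arrays) and the lower genes 1082 (median scaling) to 1602 (only the GSC and HF arrays), and no setting turned a named call except the mean over detected probes, under which GSC minus HF of E2f6 was -0.058 on the log2 scale. Fits without 1 array gave 1077 to 2258 higher and 616 to 1618 lower genes, with the share of higher calls reaching 72.1% without GSC replicate 1 against 60.8%. Between GSC and HFGSC they gave 0 to 54 genes, and the fit with no mean-variance trend gave 13. Of 295 named genes 203 kept their calls in all 4 fits without a GSC or HF array, and 92 lost at least 1. Each of these fits has fewer samples than the main fit, and the cause of the losses was not tested. With the replicate number as a block, 3173 genes were higher, 2496 lower, and genes differing between GSC and HFGSC numbered 174. The labels tie the number to nothing. The change from replicate 1 to replicate 2 in HF and that in GSC had a correlation of 0.757 across genes. Median raw intensities of HF and GSC were 151.5 and 150.5 on replicates 1, and 109.3 and 113.1 on replicates 2. In HFGSC they were 150.8 on replicate 1 and 146.0 on replicate 2, without such a drop. Whether the replicate number marks a shared batch was not tested. The larger side of a list turned with the block for histones, collagens and junctions, and with median scaling for the respiratory chain. Several probes were tested for 1225 called genes, of which 116 had a probe of the opposite sign. Genes detected on neither array of the dim group have only bounds. Where 1 of its arrays was detected, the fold also uses the other array's signal below detection and is less certain. This holds among others for Dnd1, Mbd2 and Dlx3, dim in HF, and for Fah, Rnpep, Eng, Ankrd1, Mlkl, Itgb7 and Ifit2, dim in GSC.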

Other observations

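Called genes were spread unevenly over chromosomes, as read from the RefSeq promoter table for 8838 tested genes, of which 1675 were higher and 1082 (12.2%) lower. On the X chromosome 88 of 306 tested genes (28.8%) were higher in GSC and 48 (15.7%) lower. Only 3 genes of the Y chromosome were tested, of which 2 were higher and 0 lower. On chromosome 4, 144 of 594 (24.2%) were higher and 57 (9.6%) lower. Chromosome 13 had 31 of 317 (9.78%) higher and 49 (15.5%) lower. These shares are descriptions and were not tested.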
